A study of Mus musculus with 5 samples.

Results

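Heart monocytes were picked out of 2 droplet single-cell libraries of mouse heart by their own RNA counts. A cell was kept as a monocyte when it carried a UMI (1 counted RNA molecule) of Csf1r, the receptor for macrophage colony-stimulating factor, and a UMI in at least 2 of the 5 genes Ly6c2, Plac8, Chil3, Ace and Treml4. It also had fewer than 5 UMIs summed over the macrophage complement genes C1qa, C1qb and C1qc, and none of Cd79a (B cells), Cd3e (T cells), Csf3r (neutrophils), Cdh5 (endothelium) and Xcr1 (dendritic cells). Of 19423 heart cells, 155 met this rule, 42 of 11388 in the 2-month library and 113 of 8035 in the 18-month library. Because measured values chose these cells, the levels of the genes above are given as a description only.

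Both libraries came from non-cardiomyocyte heart cells of C57BL/6 mice, 1 library from mice aged 2 months and 1 from mice aged 18 months, with ageing named as the treatment and no other allele or agent. Hearts were digested with collagenase and dispase, and the cells of each condition were stained with their own hashtag antibody, sorted, and mixed at different ratios before loading, so every share below is a share of the loaded mix and not of the heart. Each library held cells of a pair of hashtags, Hashtag09 and Hashtag10 at 2 months and Hashtag11 and Hashtag12 at 18 months, and no source used here says what a hashtag stands for or how many animals were pooled. With 1 library per age, age and library cannot be told apart, intervals cover counting error only, and no p-value is given. The labels call the sorted cells lymphocytes, but only 3641 of 11388 kept cells at 2 months and 4636 of 8035 at 18 months carried a UMI of the pan-leukocyte gene Ptprc. Sexes were mixed: of the monocytes, 15 at 2 months and 23 at 18 months carried Xist and no Y-linked UMI, while 20 and 56 carried Y-linked UMIs and no Xist.

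Monocytes are blood phagocytes that leave the bone marrow and enter tissues. Classical monocytes carry Ly6C on their surface, leave the marrow by way of the chemokine receptor Ccr2 and can turn into macrophages or dendritic cells in tissue. Non-classical monocytes carry little Ly6C, depend on the nuclear receptor Nr4a1, and patrol the inside of small vessels using the fractalkine receptor Cx3cr1 and the integrin LFA-1, whose alpha chain is Itgal. In mouse, Ace and Treml4 mark the second kind.

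The 3 genes that split the cells, and 3 interferon-stimulated genes whose values return below, are shown by their promoters, each from 250 bases before to 50 bases after the annotated start, 5′ to 3′ on the gene's strand (RefSeq, GRCm38.p6). The regions are chr15:75111922-75112221 (minus strand) for Ly6c2, chr11:105967698-105967997 (plus) for Ace and chr17:48264045-48264344 (plus) for Treml4. For the interferon genes they are chr4:156200769-156201068 (minus) for Isg15, chr12:26456403-26456702 (minus) for Rsad2 and chr19:34583279-34583578 (plus) for Ifit3. Ly6c2 and Ace have more than 1 start in the table, and the first is shown. In the first 3, capitals mark the 6 letters GAGGAA, a core bound by the myeloid factor PU.1, on either strand. In the last 3, capitals mark the letters GAAA, 2 bases of any kind and GAAA again, the interferon-stimulated response element (ISRE), on either strand, and overlapping matches run together.
Ly6c2: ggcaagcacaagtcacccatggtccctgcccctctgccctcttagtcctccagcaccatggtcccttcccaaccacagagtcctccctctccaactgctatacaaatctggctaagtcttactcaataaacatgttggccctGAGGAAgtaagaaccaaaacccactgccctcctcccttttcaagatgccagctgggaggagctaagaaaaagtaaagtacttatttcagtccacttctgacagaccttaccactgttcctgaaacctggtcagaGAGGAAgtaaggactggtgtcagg
Ace: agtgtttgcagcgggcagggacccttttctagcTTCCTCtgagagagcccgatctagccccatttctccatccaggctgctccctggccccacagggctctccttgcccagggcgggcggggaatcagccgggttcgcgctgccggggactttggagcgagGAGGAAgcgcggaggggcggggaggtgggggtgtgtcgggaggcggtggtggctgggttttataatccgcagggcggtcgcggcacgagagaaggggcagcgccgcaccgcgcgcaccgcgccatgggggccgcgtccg
Treml4: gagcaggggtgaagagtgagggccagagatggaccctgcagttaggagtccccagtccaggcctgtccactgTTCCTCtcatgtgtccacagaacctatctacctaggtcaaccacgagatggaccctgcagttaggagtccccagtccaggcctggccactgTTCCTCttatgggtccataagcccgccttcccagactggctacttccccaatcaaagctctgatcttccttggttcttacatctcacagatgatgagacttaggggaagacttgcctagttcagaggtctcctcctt
Isg15: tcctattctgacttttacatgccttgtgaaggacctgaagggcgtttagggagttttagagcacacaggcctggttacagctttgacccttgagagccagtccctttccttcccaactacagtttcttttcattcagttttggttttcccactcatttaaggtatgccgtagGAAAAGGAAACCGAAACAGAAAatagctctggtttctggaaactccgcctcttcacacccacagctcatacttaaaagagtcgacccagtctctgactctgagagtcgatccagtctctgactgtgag
Rsad2: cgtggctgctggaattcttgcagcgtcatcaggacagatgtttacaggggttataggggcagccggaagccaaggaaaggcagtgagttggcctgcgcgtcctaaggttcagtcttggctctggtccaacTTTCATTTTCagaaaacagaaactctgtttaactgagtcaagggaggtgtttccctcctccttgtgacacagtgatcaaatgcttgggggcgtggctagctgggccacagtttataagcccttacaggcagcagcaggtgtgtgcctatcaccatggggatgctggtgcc
Ifit3: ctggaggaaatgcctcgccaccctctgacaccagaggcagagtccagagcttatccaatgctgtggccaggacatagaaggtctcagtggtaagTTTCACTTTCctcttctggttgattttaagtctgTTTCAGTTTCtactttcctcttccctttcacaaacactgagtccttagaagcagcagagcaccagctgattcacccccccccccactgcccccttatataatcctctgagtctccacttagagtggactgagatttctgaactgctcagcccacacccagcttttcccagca

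The PU.1 core was present in 28.3% of 32851 promoters of the same length, so its presence in the 3 splitting genes is a description and nothing more. The lists were counted by gene, with a match at any annotated start of the gene. The core was found for 14 of 24 classical monocyte genes (58.3%), 10 of 25 non-classical genes (40%) and 16 of 43 type I interferon-stimulated genes (37.2%). The ISRE letters were in 3.44% of all promoters. They were found for 24 of the 43 interferon-stimulated genes (55.8%), 1 of 25 non-classical and 1 of 24 classical genes. A gene with several starts has more chances of a match than a single promoter, so list shares and shares of all promoters are not on the same scale. A match in these letters is not evidence of a bound factor in these cells.

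The rule let in cells that do not look like monocytes, mostly at 2 months. Of the 42 cells at 2 months, 15 had under 1000 CPM (counts scaled to a fixed total per cell or group) of Lyz2, the lysozyme gene that monocytes transcribe heavily, against 7 of 113 at 18 months. At least 5 UMIs of the fibroblast collagen gene Col1a1 were found in 10 cells at 2 months, of which 9 carried Ace and 8 carried no single hashtag, and in 4 cells at 18 months. Fibroblasts transcribe Ace themselves: of cells with at least 5 Col1a1 UMIs and no Ptprc, 2165 of 2893 at 2 months and 293 of 384 at 18 months carried an Ace UMI. The dendritic cell genes Cd209a and Flt3 reached 5 UMIs together in 7 cells at 2 months, 6 of them among the 17 outside the gate described next, and in 6 cells at 18 months, all inside it. At each age, 1 further cell had at least 10 UMIs of the plasmacytoid dendritic cell gene Siglech, and 2 and 1 cells were high in the neutrophil genes S100a8 and S100a9. A doublet caller marked 3 monocytes at each age, and no monocyte barcode occurred in both libraries, although 31 kept barcodes did.

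A stricter set, the Lyz2 gate, was therefore chosen after these values were seen, and it is printed beside the rule throughout. It keeps cells of the rule with 1 clear hashtag, at least 1000 CPM of Lyz2 and under 10000 CPM of S100a8 and S100a9 together, which left 25 cells at 2 months and 103 at 18 months. The gate took the summed level of 4 fibroblast markers from 4810 to 93.8 CPM at 2 months and from 1203 to 31.5 CPM at 18 months. Neutrophil markers (8 genes) went from 2802 to 17.3 CPM at 2 months and from 33.1 to 17.4 CPM at 18 months. Within the gate, macrophage markers summed to 160 and 236 CPM, dendritic cell markers to 98.7 and 92.4 CPM, natural killer cell markers to 0 and 20.6 CPM, B cell markers to 34.5 and 19.6 CPM and endothelial markers to 34.5 and 55.4 CPM. The defining genes Ly6g (neutrophils), Itgae and Siglech (dendritic cells) and Pdgfra (fibroblasts) were at 0 in the gate at both ages, besides the 5 genes the rule sets to 0. Mural cell markers stood at 716 and 267 CPM, with most of these UMIs in 1 cell of each library.

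Free RNA, estimated from markers of other lineages, made up 4.33% of UMIs in the gate at 2 months and 3.08% at 18 months. By the rule it was 25.8% and 13.7% in cells with Ace or Treml4 but no Ly6c2, and in the gate 0.604% and 4.55%. The depth per monocyte differed between the libraries. By the rule the median was 14330.5 UMIs per cell at 2 months (range 1691 to 39849) and 8871 at 18 months (1818 to 35212), against 8272.5 and 4433 over all kept cells. In the gate the cells with Ly6c2 alone had medians of 12627.5 UMIs (10173 to 39849) and 12333 UMIs (2999 to 16898), and those with Ace or Treml4 alone had medians of 12315.5 and 5923 UMIs.

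Monocytes were a larger share of the 18-month library. They made up 0.369% of kept cells at 2 months (exact Clopper-Pearson 95% interval 0.266 to 0.498%) and 1.41% at 18 months (1.16 to 1.69%), a log2 ratio of 1.93 (1.41 to 2.48). In the Lyz2 gate the shares were 0.220% (0.142 to 0.324%) and 1.28% (1.05 to 1.55%), a log2 ratio of 2.55 (1.90 to 3.24). Among cells with a Ptprc UMI, the rule kept 0.961% at 2 months and 2.35% at 18 months, a log2 ratio of 1.29 (0.73 to 1.88). Set against monocytes, macrophages and neutrophils together, the shares were 6.58% and 9.58%, a log2 ratio of 0.54 (0.02 to 1.09). Macrophages (472 and 499 cells) and neutrophils (124 and 568 cells) were also larger parts of the 18-month library. Of the 3 denominators, all kept cells gave the highest ratio and the myeloid cells the lowest.

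The 4 hashtags kept the order of the libraries, and they also differed within each age. In the gate, monocytes made up 0.463% of Hashtag09 cells (0.247 to 0.790%), 0.888% of Hashtag10 cells (0.459 to 1.55%), 1.64% of Hashtag11 cells (1.17 to 2.22%) and 2.30% of Hashtag12 cells (1.77 to 2.93%). The interval of Hashtag10, from 2 months, overlaps that of Hashtag11, from 18 months, and the difference between these neighbours was not tested. No source used here says whether hashtags stand for animals, sexes or sort gates.

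**Figure D1:**
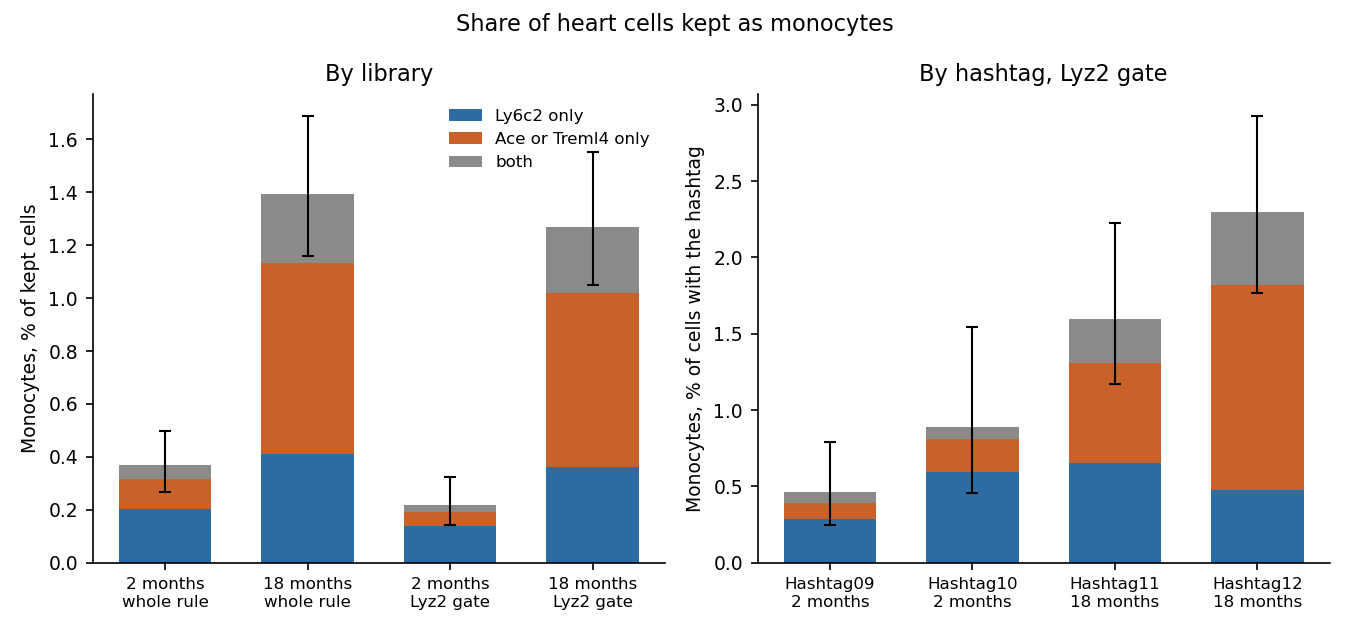
Monocytes as a percentage of heart cells, by library for the rule and the Lyz2 gate (left) and by hashtag in the gate (right). Bars start at 0 and are stacked by kind of monocyte, lines are exact 95% intervals of the total, and the bars of the 18-month library and its hashtags are the taller ones (1.28% against 0.220% in the gate).

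Most of the difference in share lay in cells with Ace or Treml4. By the rule, 23 cells at 2 months carried Ly6c2 without Ace or Treml4, 13 carried Ace or Treml4 without Ly6c2 and 6 carried both. At 18 months the numbers were 33, 58 and 21, and 1 cell carried none of the 3 genes. Cells with Ly6c2 alone were 0.202% and 0.411% of kept cells, a log2 ratio of 1.02 (0.21 to 1.86), whereas cells with Ace or Treml4 alone were 0.114% and 0.722%, a log2 ratio of 2.66 (1.78 to 3.65). In the gate the numbers were 16, 6 and 3 at 2 months and 29, 53 and 20 at 18 months, and the ratio for Ace or Treml4 cells was 3.65 (2.43 to 5.16). Of cells with 1 kind of marker in the gate, the share with Ace or Treml4 was 27.3% (10.7 to 50.2%) at 2 months and 64.6% (53.3 to 74.9%) at 18 months, intervals that do not overlap. By the rule the shares were 36.1% (20.8 to 53.8%) and 63.7% (52.99 to 73.6%), which overlap at their ends.

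The split was uneven within the 18-month library. In the gate Hashtag11 held 16 cells with Ly6c2 alone, 16 with Ace or Treml4 alone and 7 with both, while Hashtag12 held 13, 37 and 13. At 2 months Hashtag09 held 8, 3 and 2 and Hashtag10 held 8, 3 and 1. As a share of each hashtag's cells, those with Ace or Treml4 alone stood at 0.107% and 0.222% at 2 months and 0.655% and 1.35% at 18 months, in the order of the hashtag numbers. The corresponding shares for Ly6c2 alone were 0.285%, 0.592%, 0.655% and 0.474%, in which Hashtag10, Hashtag11 and Hashtag12 differ little. A less deep library loses cells that need 2 detected genes, so each cell was also thinned to 2000 UMIs, leaving out 1574 cells at 2 months and 1257 at 18 months that were shallower. The rule then kept 0.232% and 1.94% of cells, with 25.9% and 59.3% of one-kind cells in the Ace or Treml4 group. Thinning also removes UMIs of the genes that keep cells out, such as Csf3r, so the set of cells changed. On average 22.75 and 131.3 cells were kept, against 42 and 113 without thinning. These shares therefore do not compare the same cells at equal depth.

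The genes of the rule, which chose the cells, had these levels. Csf1r stood at 217 CPM of the summed monocytes at 2 months and 596 CPM at 18 months. Ly6c2, which encodes a form of the Ly6C surface antigen, stood at 906 and 468 CPM, and Ace, the angiotensin-converting enzyme, at 102 and 372 CPM. Treml4, a receptor of the TREM family, stood at 22.1 and 150 CPM, Plac8, a small protein of many leukocytes, at 1170 and 2197 CPM, and Chil3, the secreted chitinase-like protein Ym1, at 389 and 406 CPM. Among gated cells with Ly6c2 alone, Ly6c2 itself was lower at 18 months, with 2018 CPM against 978 CPM and medians per cell of 1619 and 645 CPM, and in gated cells with Ace or Treml4 alone Chil3 stood at 759 and 69.8 CPM. In mm10 with the GENCODE vM21 annotation Ly6c2 spans chr15:75108158-75111970, Plac8 chr5:100553725-100572245, Chil3 chr3:106147554-106167564, Ace chr11:105967945-105989964 and Treml4 chr17:48264295-48275360.

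How far inside the rule the cells lay also differed by age. At 2 months 26 of the 42 cells had exactly 2 of the 5 genes, 12 had 3 and 4 had more, and 133 cells had 1 of the 5 and stayed outside. At 18 months 38 cells had 2 genes, 50 had 3 and 25 had more, while 37 had 1. A UMI of Csf3r alone kept out 35 cells at 2 months and 170 at 18 months, against 42 and 113 that the rule kept. Of these, 26 and 131 passed the Lyz2 gate, 13 and 60 of them with Ly6c2 alone and 4 and 39 with Ace or Treml4 alone. These left-out cells share no cell with the monocytes of the rule, come from the same 2 libraries, and serve below as a second set of cells for each value.

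**Figure D2:**
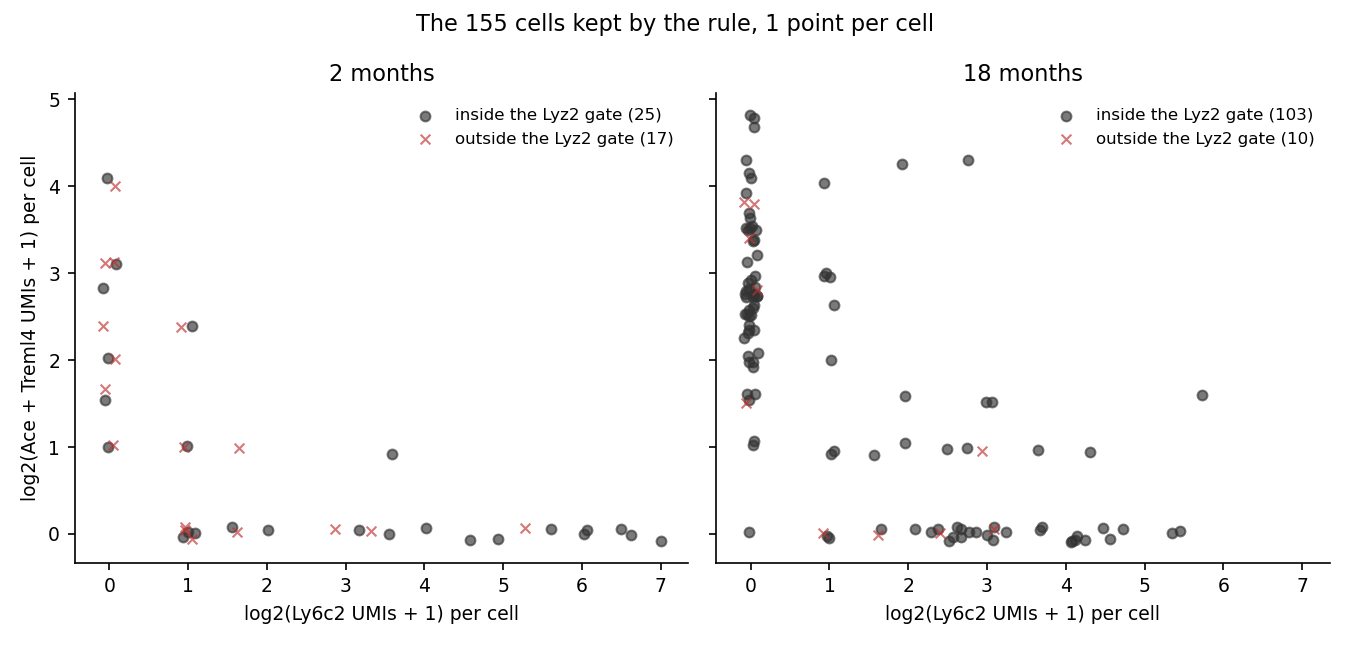
Each monocyte of the rule by its UMIs of Ly6c2 (horizontal) and of Ace plus Treml4 (vertical), as log2 of UMIs plus 1 with a small fixed jitter, 2 months left and 18 months right. Dots are cells inside the Lyz2 gate (25 and 103) and crosses cells outside it (17 and 10), and the 18-month library holds most of the cells with Ace or Treml4 and no Ly6c2.

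To see whether the marker split also separates the other genes of the 2 kinds, gated cells with Ace or Treml4 alone were compared with cells with Ly6c2 alone within each library. In this and all later comparisons a gene was counted as higher or lower when its CPM differed at least 1.5-fold and the exact conditional 95% interval of the log2 ratio left out 0, among genes with at least 20 UMIs over the cells compared. Of 2650 genes measured in both libraries, 4.15% were higher and 2.64% lower in Ace or Treml4 cells at both ages (110 and 70 genes). Non-classical monocyte genes were among the higher ones, with 13 of 19 measured members, and classical genes among the lower ones, with 7 of 23. By the rule, without the gate, 5.76% of 4134 genes were higher and 5.06% lower at both ages, with 14 of 26 non-classical genes higher and 11 of 25 classical genes lower, but all 3 measured fibroblast markers and all 3 mural markers were higher too. The kinds were defined from these same cells, so these counts describe the split. The gated 2-month Ly6c2 cells include 5 cycling cells, described below. Without cycling cells 58 genes were higher and 59 lower at both ages. The values between the kinds below include these cells except where stated.

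Genes of patrolling monocytes separated the kinds at both ages. Itgal stood at 76.3 CPM in Ly6c2 cells and 444 CPM in Ace or Treml4 cells at 2 months, a log2 difference of 2.54, and at 112 and 1147 CPM at 18 months, a difference of 3.36. Gngt2, a G protein gamma subunit, stood at 125 and 945 CPM at 2 months and 249 and 1938 CPM at 18 months. Pou2f2, a transcription factor of lymphoid and monocyte cells, stood at 128 and 616 CPM, then at 240 and 1248 CPM. The log2 differences of Gngt2 were 2.92 and 2.96 at the 2 ages, and those of Pou2f2 2.26 and 2.38. Nr4a1, the factor that non-classical monocytes depend on, stood at 638 and 1160 CPM at 2 months (0.86) and at 469 and 1004 CPM at 18 months (1.10). Cx3cr1 stood at 149 and 602 CPM (2.01) and then at 235 and 530 CPM (1.17). Bcl2a1b, from a cluster of near-identical survival genes whose reads cannot be assigned with certainty, stood at 62.4 and 716 CPM and then 17.2 and 538 CPM.

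Classical genes ran the other way. F13a1, the A chain of clotting factor XIII, stood at 777 CPM in Ly6c2 cells and 129 CPM in Ace or Treml4 cells at 2 months (log2 -2.59), and at 758 and 5.82 CPM at 18 months (-7.03). By the rule Ccr2 was counted as lower at both ages. In the gate Ccr2 and Fn1 were counted as lower at 18 months and not at 2 months, and the difference between the ages was not tested. Ccr2 stood at 687 CPM in both kinds at 2 months (log2 0.00, interval -0.48 to 0.46) and at 830 and 108 CPM at 18 months (-2.95, -3.48 to -2.45). Without the 5 cycling cells described below, 2-month Ly6c2 cells stood at 1013 CPM of Ccr2 and 496 CPM of F13a1. Fn1, the matrix protein fibronectin, stood at 485 and 372 CPM at 2 months (-0.38) and at 1362 and 11.6 CPM at 18 months (-6.87). The summed gated Ace or Treml4 cells of the 2-month library thus held Ccr2 and Fn1, though not each cell did (Ccr2 UMIs were 0, 0, 4, 9, 10 and 25), and the 53 cells of the 18-month library had little of either.

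Interferon-stimulated genes were lower in Ace or Treml4 cells (8 of 20 measured at both ages), among them Isg15, a ubiquitin-like modifier, with 132 and 28.6 CPM at 2 months and 269 and 64.0 CPM at 18 months. In the gate MHC class I genes (4 of 14) were higher in Ace or Treml4 cells at both ages. Among them H2-K1 stood at 874 and 1804 CPM and then at 1036 and 2604 CPM. By the rule 0 of 18 members were higher at both ages and 1 was lower. At 2 months 0 were higher and 8 lower by the rule, and at 18 months 5 were higher and 1 lower. NF-kB feedback genes were higher in Ace or Treml4 cells at both ages in 3 of 21 members by the rule. In the gate they were higher in 6 of 16 (Nfkbiz, Rel, Tnip3, Cd83, Traf1 and Dusp2). MHC class II genes, which present antigen to CD4 T cells, changed sides in the gate but not by the rule. In the gate 7 of 8 were higher in Ace or Treml4 cells at 2 months, where the background was 9.06%. At 18 months 4 were lower in them, where the background was 13.9%. By the rule 0 of 9 were higher at either age. Lower by the rule were 3 at 2 months (background 16.5%) and 6 at 18 months (11.2%). In the gate Cd74, the class II invariant chain, stood at 4518 and 13500 CPM at 2 months and at 4071 and 3469 CPM at 18 months. The 2-month Ly6c2 cells include 5 cycling cells, described below, with class II sums of 728 to 1713 CPM. The median class II sum per 2-month Ly6c2 cell was 2173 CPM with them and 5731 CPM without them. In 2-month Ace or Treml4 cells it was 20760 CPM. The class II counts between the kinds are given only with the cycling cells in.

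**Figure D3:**
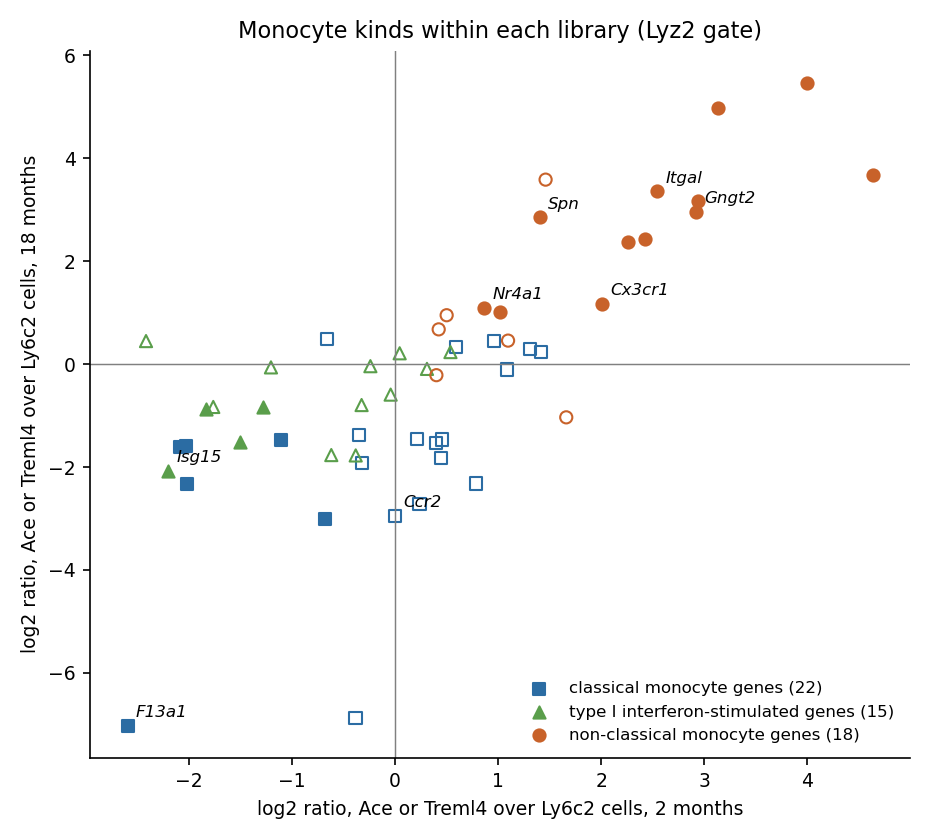
Log2 ratio of Ace or Treml4 cells over Ly6c2 cells in the Lyz2 gate, at 2 months (horizontal) and 18 months (vertical), 1 point per gene of 3 lists, without genes at 0 in a group. Filled points are counted the same way in both libraries, 12 of 18 drawn non-classical genes above 0 and 6 of 22 classical and 4 of 15 interferon-stimulated genes below 0.

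Cells with Ly6c2 alone of the 2 ages differed in many genes. By the rule (23 and 33 cells) 7.6% of 4974 measured genes were higher at 18 months and 11% lower, and in the Lyz2 gate (16 and 29 cells) 7.45% of 4199 were higher and 10.9% lower. Classical monocyte genes were counted as higher in 17 of 31 measured members by the rule (median log2 ratio 0.88, against -0.07 over all genes) and in 16 of 29 in the gate (0.70, against -0.04), with none lower. All log2 ratios below are 18 over 2 months.

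Lyz2, which the gate itself uses, stood at 12514 and 33993 CPM by the rule, at 17433 CPM in gated Ly6c2 cells at 2 months and 37307 CPM at 18 months, a log2 ratio of 1.10 (1.05 to 1.14), with hashtag values of 21250, 13410, 35140 and 39900 CPM. Both 18-month hashtags lay above both 2-month ones, although single cells ran from 1556 to 55820 CPM and from 1006 to 68030 CPM. Fn1 stood at 485 and 1362 CPM, a log2 ratio of 1.49 (1.21 to 1.77), and again the hashtags did not overlap, with 494 and 477 CPM at 2 months and 1489 and 1210 CPM at 18 months. Sirpb1c, an activating receptor of the SIRP family whose close copies make the count uncertain, stood at 27.7 and 246 CPM (3.15) in 2 of 16 and 24 of 29 cells, while 4 of 2893 and 2 of 384 fibroblasts, which should lack it, carried a UMI (median depths 13500.0 and 12484 UMIs). Cd177, a surface protein of neutrophils and some monocytes, stood at 55.5 and 177 CPM (1.68), and Thbs1, the adhesive protein thrombospondin 1, at 27.7 and 415 CPM (3.90). Cd14, the co-receptor for lipopolysaccharide, stood at 267 and 690 CPM (1.37). Other genes that classical monocytes are known for were nearly level: Ccr2 at 687 and 830 CPM (0.27), F13a1 at 777 and 758 CPM (-0.03) and Hp, haptoglobin, at 586 and 770 CPM (0.39), none of them counted as different.

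In heart macrophages, taken by the same kind of rule, 3.29% of 11382 genes were higher and 9.02% lower at 18 months. There Lyz2 stood at 12303 and 11103 CPM (log2 -0.15), while Sirpb1c, at 6.67 and 19.7 CPM, was higher as well (1.57). Among the left-out Csf3r cells with Ly6c2 alone (13 and 60 cells), where 3.95% of genes were higher and 5.12% lower, 5 of 32 classical genes were higher and 1 lower (median 0.36), and without their cycling cells 2 were higher and 2 lower (0.20), where 3.14% of 4939 genes were higher and 4.15% lower. Cd177 was higher there too, at 62.2 and 183 CPM (1.56), but Fn1 was nearly level at 1119 and 1236 CPM (0.14) and Cd14 was lower, at 851 and 410 CPM (-1.05). Of these 3 genes, Cd177 was thus counted the same way in both sets of cells and Cd14 in opposite ways. The difference between the sets was not tested.

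The 2-month Ly6c2 cells held cycling cells. In the gate, 5 of 16 Ly6c2 cells at 2 months (31.3%, interval 11.02 to 58.7%) had between 80 and 214 UMIs summed over the cell cycle list without 4 genes that resting cells also express, while the other 11 had at most 8. At 18 months 0 of 29 had 10 or more, which allows a share of up to 11.9%. By the rule the numbers were 7 of 23 and 1 of 33, and in the left-out Csf3r cells 2 of 13 and 1 of 60. The proliferation antigen Mki67 had 8, 8, 13, 14 and 25 UMIs in the 5 cells, and the topoisomerase Top2a 4, 12, 15, 23 and 25. These 5 cells were large, with 25685 to 39849 UMIs each, and carried Ly6c2 at 2796 CPM against 1159 CPM in the other 11.

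The same 5 cells held the genes of early granules. Of 198 UMIs of Mpo, Elane, Prtn3 and Ctsg, proteins made in the primary granules of marrow precursors, 195 lay in them. Prtn3, proteinase 3, had 1, 7, 9, 11 and 78 UMIs, Elane, neutrophil elastase, 0, 1, 2, 8 and 20, and Ctsg, cathepsin G, 0, 1, 2, 4 and 34. Mpo had 0, 0, 0, 1 and 16 UMIs. Irf8, a transcription factor needed to form monocytes, stood at 397 CPM in them and 146 CPM in the other 2-month cells, and F13a1 at 1031 and 496 CPM. Ccr2 ran the other way, with 390 and 1013 CPM, and so did Lyz2, with 14640 and 20520 CPM. Some interferon genes were low in them. Isg15 had 0 UMIs in the 5 cells against 277 CPM in the other 11, Rsad2 0 against 87.5 CPM, and Irf7 19.8 against 117 CPM. Their sums over the whole interferon-stimulated list ran from 2108 to 5823 CPM, against 2795 to 29410 CPM in the other 11, so the ranges overlapped. Cycling cells with early granule genes were also found at 18 months, outside the rule. Among the left-out Csf3r cells with Ly6c2 alone, the 1 cycling cell at 18 months held 364 UMIs of the early granule genes. The 2 cycling cells at 2 months held 32.

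**Figure D4:**
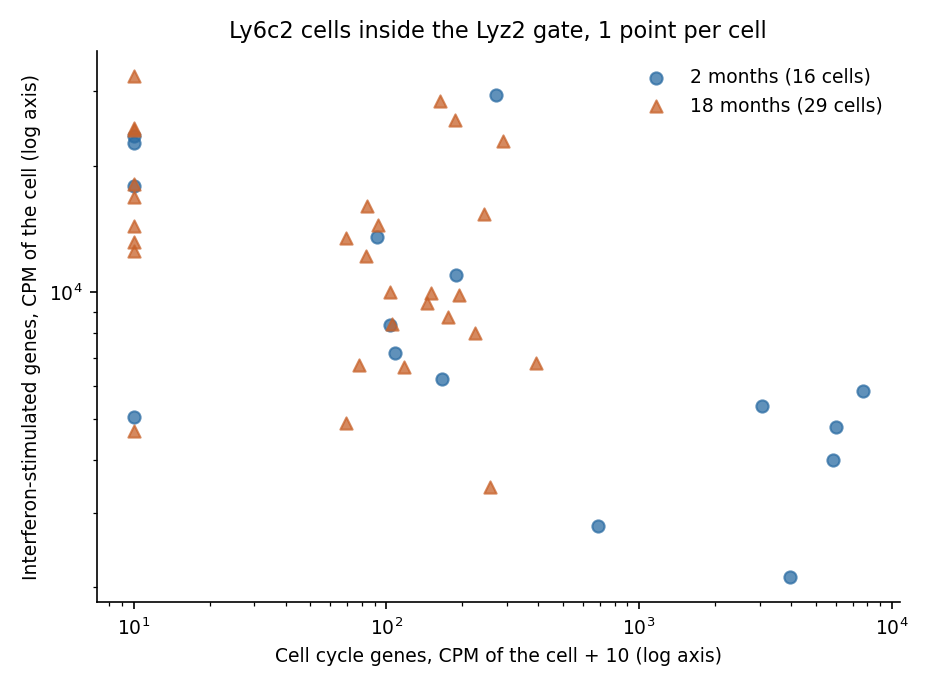
Gated Ly6c2 monocytes by their summed cell cycle genes (horizontal, CPM plus 10, log axis) and summed type I interferon-stimulated genes (vertical, CPM, log axis), 1 point per cell, coloured by age. The 5 cycling 2-month cells sit apart at the right, and no 18-month cell lies beside them.

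Values over the 2-month Ly6c2 cells therefore depend on these 5 cells, and part of them are also given without them. A value printed with no second figure includes the 5 cells. With 11 and 29 cells left, 3.84% of 3336 genes were higher at 18 months and 4.17% lower. Of the classical genes 12 of 28 were higher and 1 lower, with a median of 0.58: Lyz2 stood at 0.86, Fn1 at 1.40, Cd14 at 1.07, Thbs1 at 2.83, Sirpb1c at 2.08 and Cd177 at 2.28 on the log2 scale, all counted as higher. Others lost their difference: S100a4, a calcium-binding protein, went from 0.61 to 0.13, and Klra2, a lectin-like receptor, from 1.44 to 0.37. F13a1, level with the cycling cells in, was higher at 18 months without them (0.61). Irf8 had been lower at 18 months, at 277 and 146 CPM (-0.93), and was level without the cycling cells (0.00). The cell cycle list itself, lower in 19 of 19 measured members of the gate (median -3.15, or -3.23 with genes at 0 set at their bound), kept 4 measured members without them, of which 1 was lower.

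Type I interferon-stimulated genes were higher in 18-month Ly6c2 cells, and the median of the gate was near 0 without the cycling cells. By the rule 28 of 44 measured members were higher (median log2 0.97), and in the gate 20 of 43 (0.68), with none lower in either set. Without the cycling cells 3 of 41 were higher and 4 lower, with a median of 0.01. In the left-out Csf3r cells 18 of 47 were higher and none lower (0.70), and without the cycling cells of that set 14 were (0.68). The 2 sets of cells therefore differ in this value, and no test of the difference between them was made. Heart macrophages had 1 of 51 members higher and 4 lower (-0.24).

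Gene by gene, Isg15 stood at 132 CPM in gated Ly6c2 cells at 2 months and 269 CPM at 18 months, a log2 ratio of 1.03 (0.47 to 1.61). Without the cycling cells it was level, at 277 and 269 CPM (-0.04). Its level was uneven within each library, at 216, 42.7, 431 and 75.3 CPM by hashtag, so that the lower 18-month hashtag lay under the higher 2-month one. In the left-out cells it stood at 167 and 241 CPM, and in macrophages at 125 and 93.0 CPM (-0.42, not counted). Rsad2, the antiviral enzyme viperin, gave 41.6 and 100 CPM in the gate (1.27), 87.5 and 100 CPM without cycling cells (0.20), and 28.7 and 156 CPM in the left-out cells (2.45). Ifit3, an antiviral RNA-binding protein, was not counted as different in the gate, at 65.9 and 91.6 CPM (0.48), but was in the left-out cells, at 9.56 and 96.1 CPM (3.33). The promoters of these 3 genes are printed above with their ISRE letters.

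Irf7, the transcription factor that amplifies the type I interferon response, was counted as higher in each of these sets of Ly6c2 cells. It stood at 65.9 and 258 CPM in the gate, a log2 ratio of 1.97 (1.24 to 2.76), with 87.9 and 42.7 CPM in the 2-month hashtags and 353 and 144 CPM in the 18-month ones, which do not overlap. Without the cycling cells it was still higher, at 117 and 258 CPM (1.14, 0.37 to 2.01), and so it was in the left-out cells, at 134 and 231 CPM (0.79). In macrophages it stood at 52.7 and 44.8 CPM (-0.24). Slfn1, of the Schlafen family, was also counted in the gate with and without cycling cells, at 31.2 and 129 CPM (2.04) and at 58.3 and 129 CPM (1.14), but not in the left-out cells (0.37). Ifitm3, a membrane protein that blocks virus entry, stood at 2944 and 4889 CPM (0.73) and was level without the cycling cells (0.14).

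Receptors for microbes and antibodies were among the genes higher in 18-month Ly6c2 cells. Of the pattern recognition and Fc receptor list, 13 of 18 measured members were higher by the rule (median log2 1.33), 10 of 17 in the gate (1.01) and 4 of 16 without cycling cells (0.57), with 1 lower in the last set. In the left-out cells 3 of 23 were higher and 1 lower (0.26). Fcgr3, the low-affinity Fc receptor for IgG, was counted in each of these sets: it stood at 208 and 432 CPM in the gate (1.05, 0.61 to 1.51), at 219 and 432 CPM without cycling cells (0.98), and at 187 and 383 CPM in the left-out cells (1.04). Its hashtag values were 176 and 242 CPM at 2 months and 384 and 489 CPM at 18 months, without overlap, and macrophages stood at 627 and 701 CPM (0.16). Clec4e, the receptor Mincle, stood at 58.9 and 252 CPM in the gate (2.09) and was not counted in the left-out cells (0.56). Tnfrsf1b, a receptor for tumour necrosis factor, stood at 34.7 and 126 CPM (1.86), and Adgre5, the adhesion receptor CD97, at 156 and 518 CPM (1.73), higher in the left-out cells too (0.87).

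The IFN-γ response list was less uniform, with 8 of 20 members higher and 1 lower by the rule, 5 of 19 higher and 2 lower in the gate (median 0.53) and 1 of 18 higher and 1 lower without cycling cells (0.15). In the left-out cells 7 of 25 were higher (0.61). Of the genes with the lowest ratios by the rule in Ly6c2 cells, the coat protein gene Copb2 stood at 104 and 31.5 CPM in the gate (-1.72) and the cap-binding translation factor Eif4e at 118 and 34.3 CPM (-1.78), and neither was counted in the left-out cells, where their ratios were positive (0.69 and 0.39). Klf2, a transcription factor of quiescence, stood at 416 and 873 CPM in the gate (1.07) and was higher in the left-out cells as well, at 397 and 1036 CPM (1.38).

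Cells with Ace or Treml4 alone were few at 2 months, and their values rest on 13 cells of the rule or 6 of the gate. Of the 13, the 7 outside the gate each carried at least 17 Col1a1 UMIs. The 6 gated cells had as much Ccr2 as all gated Ly6c2 cells and more Lyz2 (23917 against 17433 CPM). The 11 Ly6c2 cells that were not cycling had more Ccr2 than the 6 cells, at 1013 CPM. Their Lyz2 stood at 20520 CPM. The 6 cells summed still held both genes, so at 2 months this group is called by its markers and not by the name non-classical. By the rule, 15.9% of 4744 genes were higher at 18 months and 17.3% lower, and in the gate 6.74% of 3116 were higher and 4.88% lower, with fibroblast RNA and free RNA taken out of the 2-month side by the gate. Non-classical monocyte genes were higher in 28 of 31 measured members by the rule (median log2 2.40, against 0.03 over all genes) and in 24 of 31 in the gate (1.19, against 0.13), with 1 lower there. In the left-out cells (4 and 39 cells), where 6.56% of genes were higher and 2.79% lower, 17 were higher and none lower (1.21). Heart macrophages had 3 of 30 members higher and 1 lower (0.19).

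Itgal stood at 444 CPM in the gate at 2 months and 1147 CPM at 18 months, a log2 ratio of 1.37 (0.84 to 1.95). It was found in 5 of 6 and 52 of 53 cells, and in 1.24% and 2.60% of fibroblasts, which should lack it. By hashtag it stood at 329 and 594 CPM at 2 months and 1039 and 1193 CPM at 18 months, without overlap, and single cells ran from 0 to 1813 CPM and from 0 to 5313 CPM. The left-out cells gave 314 and 1041 CPM (1.73). Pou2f2 stood at 616 and 1248 CPM (1.02), Gngt2 at 945 and 1938 CPM (1.04) and Klf2 at 559 and 1394 CPM (1.32), each with both 18-month hashtags above both 2-month ones and each higher in the left-out cells (1.21, 2.15 and 1.59). Pglyrp1, a secreted protein that binds bacterial peptidoglycan, stood at 387 and 885 CPM (1.19), and Spn, the sialoglycoprotein CD43 that is used to sort non-classical monocytes, at 229 and 457 CPM (0.996). These genes mark the kind itself, so the summed 18-month cells carried more of this RNA than the 6 cells at 2 months summed. Per cell, the non-classical list summed to 6206 to 24570 CPM at 2 months (median 11690). At 18 months the range was 5820 to 33000 CPM (median 21880). Whether all 6 cells belong to the kind was not tested.

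Several genes with the highest ratios were nearly absent at 2 months. Cd300e, an activating receptor of non-classical monocytes, stood at 43.0 and 413 CPM in the gate (3.27, 1.69 to 5.56) and at 157 and 407 CPM in the left-out cells (1.37). It was found in 1 of 6 and 41 of 53 gated cells, against 1 of 2893 and 0 of 384 fibroblasts. Dusp16, a phosphatase of JNK and p38 kinases, stood at 14.3 and 335 CPM (4.55, 2.04 to 9.86) and was higher in the left-out cells (1.89). Fabp4, a fatty acid carrier that capillary endothelium also makes, stood at 43.0 and 474 CPM (3.46) and was higher there too (2.36). Tcf7l2, a transcription factor of the Wnt pathway, at 28.6 and 279 CPM (3.29), and Trem3, an activating receptor, at 28.6 and 175 CPM (2.61), were not counted in the left-out cells (0.40 and 0.08). Nr4a1 and Cx3cr1, the genes the kind is known for, were not higher: Nr4a1 stood at 1160 and 1004 CPM in the gate (-0.21) and Cx3cr1 at 602 and 530 CPM (-0.18), although by the rule Cx3cr1 had been higher (1.39).

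Classical genes were mixed in these cells by the rule, with 12 of 25 members higher and 9 lower, and mostly lower in the gate, with 5 of 23 higher and 11 lower. Their gate median was -0.36, or 0.02 with genes at 0 set at their bound, and in the left-out cells 7 of 20 were higher and 7 lower (0.30). Ccr2 stood at 687 CPM at 2 months and 108 CPM at 18 months in the gate (-2.67, -3.33 to -2.03). The hashtags did not overlap, with 734 and 627 CPM against 48.1 and 134 CPM. It was found in 4 of 6 and 12 of 53 cells, and in 0.968% and 1.56% of fibroblasts. It was lower in the left-out cells as well, at 549 and 77.3 CPM (-2.83). Fn1 stood at 372 and 11.6 CPM (-5.0) and Lyz2 at 23917 and 13523 CPM (-0.82), the reverse of their course in Ly6c2 cells. The 6 cells of the 2-month library thus carried more of these 3 classical genes than the 53 cells of the 18-month library.

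MHC class II genes were lower in 18-month Ace or Treml4 cells. Of the list, 7 of 9 measured members were lower and 1 higher by the rule (median -1.70), 7 of 8 were lower and none higher in the gate (-2.25), and 6 of 8 in the left-out cells. H2-Aa, a class II alpha chain, stood at 3494 and 736 CPM in the gate (-2.25, -2.51 to -1.99) and at 8812 and 769 CPM in the left-out cells (-3.52). H2-Ab1, its beta chain, stood at 3824 and 608 CPM (-2.65) and Cd74 at 13500 and 3469 CPM (-1.96). The hashtags did not overlap for H2-Aa, with 4633 and 2012 CPM against 356 and 901 CPM. Macrophages stood level, with Cd74 at 22191 and 25357 CPM (0.19) and 1 of 13 members lower. In heart neutrophils 5 of 10 members were lower and 0 higher (-0.68), where 611 of 7716 genes were lower.

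This difference rested on 3 of the 6 young cells. H2-Aa stood at 0, 0, 173, 5185, 5736 and 7866 CPM in the 6 gated cells of the 2-month library, and 6 of the 53 cells at 18 months had at least 1000 CPM, with 27 at 0 and a highest value of 8271 CPM. In the 3 high cells, in that order, non-classical genes summed to 10990, 6206 and 12390 CPM and classical genes to 33250, 62530 and 54760 CPM. The 3 low cells had 9180, 17830 and 24570 CPM of non-classical genes and 22800, 26590 and 20420 CPM of classical genes, so the high cells carried more classical RNA. The dendritic cell genes Cd209a and Flt3 reached 5 UMIs together in 1 gated monocyte at 2 months and 6 at 18 months, and by the rule in 7 and 6. In Ly6c2 cells Cd209a stood at 237 and 122 CPM by the rule (-0.96), at 31.2 and 134 CPM in the gate (2.11) and at 86.1 and 10.3 CPM in the left-out cells (-3.07). Their part in the class II values was not tested. In gated Ly6c2 cells 1 of 9 class II members was higher and 2 lower, H2-Aa among the latter at 1765 and 1096 CPM (-0.69). Without the cycling cells 0 of 9 were higher and 4 lower (median -0.56), where 4.17% of genes were lower. The median of H2-Aa per 2-month cell was 32.75 CPM with the cycling cells and 353 CPM without them. At 18 months it was 90.5 CPM. Lower class II values at 18 months were thus not limited to Ace or Treml4 cells. In the left-out Ly6c2 cells H2-Aa ran the other way, at 540 and 829 CPM (0.62).

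Some inflammatory genes were lower at 18 months in gated Ace or Treml4 cells. Of the inflammatory cytokine and chemokine list 3 of 8 members were lower (Il1b, Ccl6 and Ccl9) and 1 higher (Ccl5) in the gate, and 2 of 7 were higher and none lower in the left-out cells. Of the NF-kB feedback list 7 of 18 members were lower in the gate and none higher (median -0.79), and in the left-out cells 1 of 15 was higher and 1 lower (0.12). Nfkbia, the inhibitor IkB-alpha, stood at 3394 and 809 CPM in the gate (-2.07) and at 1438 and 1049 CPM in the left-out cells (-0.46, not counted). Il1b, the cytokine interleukin-1 beta, stood at 4626 and 984 CPM in the gate (-2.23) and was higher in the left-out cells, at 1098 and 1802 CPM (0.71). The 2 sets thus gave opposite directions for Il1b. Adhesion and migration receptors were higher in 11 of 16 members by the rule and 4 of 15 in the gate (Itgal, Itgax, Itga4 and Itgb1), and MHC class I genes in 13 of 19 by the rule and 3 of 18 in the gate. Of the same lists, 3 of 15 adhesion receptors were higher and 1 lower in the left-out cells, and 0 of 17 MHC class I genes were higher and 1 lower (0.05).

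Type I interferon-stimulated genes were also higher in these cells by the rule, in 10 of 24 members with 2 lower (median 1.03), and in 6 of 19 in the gate (0.64). In the left-out cells 1 of 11 was higher and 3 lower (-0.33). Pattern recognition and Fc receptors were higher in 16 of 19 members by the rule (1.64) and in 6 of 19 in the gate, with 2 lower (0.17). Fcgr4, the Fc receptor typical of non-classical monocytes, stood at 143 and 422 CPM in the gate (1.56) and was not counted in the left-out cells (0.39).

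Taken over all monocytes, the ages differed in 9.84% of 7761 genes that were higher at 18 months and 15.8% that were lower by the rule, and in 8.5% and 9.75% of 6305 genes in the gate. These sums mix the 2 kinds in different proportions, so genes of the non-classical kind come out higher whatever their level per cell: 26 of 31 non-classical members were higher in the rule and in the gate. The 10 highest ratios by the rule were those of Cd300e, Smpdl3b, Havcr2, Gdpd3, S1pr5, Spata13, Sirpb1c, Lilra5, Pparg and Lpcat2. S1pr5, a receptor for sphingosine-1-phosphate that lets non-classical monocytes leave the marrow, stood at 6.91 and 65.3 CPM by the rule (3.24) and was higher in the gate (2.56) and in the left-out cells (2.90). Pparg, a nuclear receptor of lipid metabolism, was higher in all 3 sets (2.89, 2.20 and 1.498). Of the genes with the lowest ratios, Apex1, a DNA repair enzyme, and Slc29a1, a nucleoside carrier, were lower in the rule (-2.02 and -1.83), the gate (-2.18 and -1.56) and the left-out cells (-1.49 and -1.71).

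Heat shock proteins were lower at 18 months over all monocytes, in 7 of 22 members with 2 higher by the rule (median -0.42), 5 of 22 with 1 higher in the gate (-0.37), and 9 of 22 with none higher in the left-out cells (-0.51), where 5.5% of 6983 genes were higher and 6.74% lower. Without cycling cells, where 5.54% of 5880 genes were higher and 4.66% lower, 5 were lower and none higher (-0.40). Hsp90aa1, an inducible cytosolic chaperone, stood at 926 and 612 CPM in gated Ly6c2 cells (-0.60), at 1006 and 612 CPM without the cycling cells (-0.72) and at 1224 and 576 CPM in the left-out cells (-1.09). Hsph1, a co-chaperone of HSP70, stood at 65.9 and 28.6 CPM (-1.20) and at 110 and 41.0 CPM in the left-out cells (-1.42). The inducible chaperone Hspa1a did not follow them, with 971 and 1802 CPM in gated Ly6c2 cells (0.89) and no difference without cycling cells (-0.02). The list was lower in macrophages too, in 6 of 22 members (-0.40), with Hsp90aa1 at 1011 and 661 CPM. Both cell classes thus had lower chaperone medians at 18 months.

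Genes that follow glucocorticoids and the time of day were higher at 18 months over all monocytes, in 5 of 13 members with 1 lower by the rule (median 0.71), 5 of 11 with 1 lower in the gate (0.71) and 5 of 11 with none lower in the left-out cells (0.61). These sums mix the 2 kinds in different proportions. By the rule 4 of 6 members were higher in Ace or Treml4 than in Ly6c2 cells at 18 months. In gated Ly6c2 cells without cycling cells 0 of 3 members were higher by age (0.04), and in left-out Ly6c2 cells 2 of 8 (0.64). Tsc22d3, a glucocorticoid-induced leucine zipper protein that damps inflammation, stood at 257 and 418 CPM in the gate (0.71, 0.39 to 1.03), at 179 and 347 CPM in the 2-month hashtags and at 464 and 387 CPM in the 18-month ones. In the left-out cells it stood at 158 and 430 CPM (1.45), and it was higher in macrophages (0.63) and neutrophils (0.84) as well. Sgk1, a glucocorticoid-induced kinase, stood at 14.8 and 64.1 CPM in the gate (2.11) and was higher in the left-out cells (2.42). Fkbp5 ran the other way in the gate, at 29.6 and 8.69 CPM (-1.77), while it was higher in macrophages (1.03) and neutrophils (1.21). Over the whole list macrophages had 5 of 21 members higher and 4 lower (-0.04), and neutrophils 4 of 16 higher and 0 lower (0.36). Nuclear oxidative phosphorylation genes hardly differed, with 5 of 47 lower and none higher in the gate (-0.18), and none of the 12 mitochondrially encoded genes was counted either way.

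**Figure D5:**
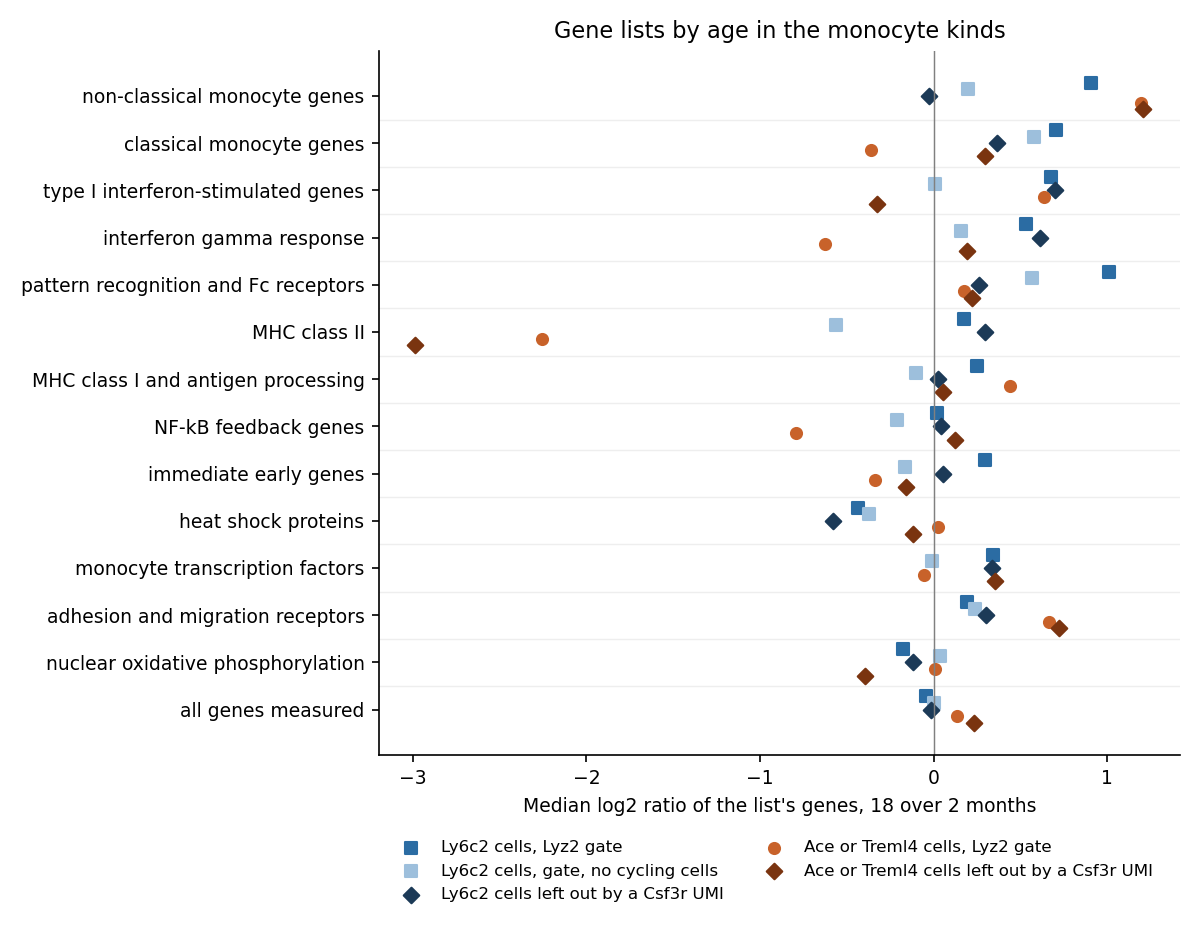
Median log2 ratio (18 over 2 months) of the measured members of each gene list, for 5 sets of cells. Non-classical genes lie at or above 0 in every set but the left-out Ly6c2 cells (-0.02), MHC class II genes lie lowest in Ace or Treml4 cells (-2.25 in the gate), and the interferon-stimulated median of gated Ly6c2 cells (0.68) lies near 0 without cycling cells (0.01).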

How the data were processed

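The deposited heart files give counts (UMIs of each gene in each barcode, not normalized), made by the authors with Cell Ranger 3.1.0 on mm10 per the submitters' processing notes, from a 10x 3' kit per the labels' protocols. Kept cells had 200 genes or more and no more than 15% of UMIs from mitochondrial genes (11388 of 12235 barcodes at 2 months, 8035 of 8844 at 18 months; 110118225 and 55837814 UMIs). UMIs were summed over the cells of a group and scaled to CPM of that sum. Ratios carry exact conditional binomial 95% intervals and shares Clopper-Pearson intervals; PCR copies are collapsed by UMI, and all intervals cover counting error only. A gene at 0 in a group enters a median also at a bound from 3 counts over the group. Doublets were called with Scrublet (Scanpy 1.11.5) at an expected 8% and left in. Free RNA is the median, over markers of other lineages, of their level in the group over that in the library. Named genes by age are the 10 highest and 10 lowest ratios that reached 50 CPM in either library and 50 UMIs over both, with an interval beyond 1.5-fold, under 25% free RNA and under 50% of UMIs in the 5 richest cells, or members of the gene lists. Between the kinds, the same filters were used in both libraries. The members, the gene lists and the tests were chosen with earlier results of these data known. Scripts were tested on simulated data (SciPy 1.17.1, NumPy 2.4.6, pandas 2.3.3 and Matplotlib 3.10.9 under Python 3.11.15). Alternatives included the authors' filter (15000 UMIs, 8% mitochondrial), other UMI minimums, hashtags, Xist, thinning, and scaling with edgeR 4.0.16 and DESeq2 1.42.0 in R 4.3.3. The lymph node library was not used here.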

Additional observations from a re-analysis of the deposited data

Results flagged for a closer look

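Genes whose ratio between the ages had opposite signs in the 2 kinds of monocyte are listed here; the difference between the kinds was not tested, and the gated Ace or Treml4 group held 6 cells at 2 months. All values are log2 ratios, 18 over 2 months, in Ly6c2 cells and then in Ace or Treml4 cells, and in the gate each was counted as higher in the first and lower in the second. The Ly6c2 values include the 5 cycling 2-month cells. Without those cells Fn1 was still higher, but immediate early genes were higher in 1 of 22 members and lower in 5 (median -0.17). NF-kB feedback genes were then higher in 1 of 19 and lower in 4 (-0.21). The other genes listed here are not given without the cycling cells. Fn1 (fibronectin) stood at 1.49 and -5.0 in the gate and at 1.84 and -5.38 by the rule. Dusp1, a phosphatase of MAP kinases, stood at 1.10 and -2.02 in the gate and at 1.08 and -1.66 by the rule. Fos, an immediate early gene, stood at 0.63 and -1.55 in the gate and at 0.74 and -2.43 by the rule. Ier3, another early response gene, stood at 1.08 and -2.22 in the gate and at 1.503 and -2.88 by the rule. Ccl9, a chemokine of monocytes, stood at 1.44 and -2.43 in the gate and at 1.51 and -0.88 by the rule. Socs3, a feedback inhibitor of cytokine receptors, stood at 1.89 and -1.73 in the gate and at 2.07 and -1.48 by the rule, with all its 2-month Ace or Treml4 UMIs in 1 cell. Lyz1 stood at 6.22 and -6.23 in the gate and at 6.57 and -4.75 by the rule. Lyz1 is nearly identical to Lyz2, so its counts are uncertain. In the left-out Csf3r cells with Ace or Treml4, Dusp1 (0.33) and Fos (-0.04) did not have the lower values of the gate.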

How the results depend on the processing

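The monocyte share kept its direction under every alternative run. Its log2 ratio moved from 1.93 to 2.59 with the authors' filter, 4.65 without cells holding 2 UMIs of another lineage (4 and 71 cells left), 1.14 in cells with Xist and no Y-linked UMI, 1.20 for Hashtag09 against Hashtag11, 2.55 in the gate, 2.70 in the gate with Csf3r allowed, 2.87 in the gate without cycling cells, 3.06 and 3.12 thinned to 2000 and 1000 UMIs, 1.29 of Ptprc cells and 0.54 of myeloid cells. The share of Ace or Treml4 cells among one-kind cells at 18 months (63.7%) moved to 79.0% in Xist cells, 47.1% in Hashtag11, 73.6% in Hashtag12 and 50.8% in the gate with Csf3r allowed. The counts by the rule were 764 genes higher and 1225 lower over all monocytes, 378 and 547 in Ly6c2 cells and 752 and 819 in Ace or Treml4 cells. With the authors' filter they were 433 and 425, 175 and 147, and 291 and 217. Without cells with a C1q UMI, 330 were lower in Ly6c2 cells, and 480 higher and 475 lower in Ace or Treml4 cells. In Xist cells 392 and 440 differed over all monocytes; in cells with Y-linked UMIs 616 were lower over all, 329 lower in Ly6c2 cells, and 383 higher and 364 lower in Ace or Treml4 cells. Hashtag09 against Hashtag11 gave 451 and 475 over all and 318 lower in Ly6c2 cells, and Hashtag09 against Hashtag12 gave 646 lower over all. The gate gave 615 lower over all and 210 and 152 in Ace or Treml4 cells, and with Csf3r allowed 318 and 184 there. The gate without cycling cells gave 326 and 274, 128 and 139, and 210 and 152. At 50 UMIs 703 were lower over all, 245 and 287 differed in Ly6c2 cells and 395 were lower in Ace or Treml4 cells, and with no UMI minimum 1377 were lower there. At 2-fold 450 were higher over all and 251 in Ly6c2 cells. Between the kinds, 238 higher and 209 lower in both libraries became 65 and 63 with the authors' filter, 152 and 108 in cells with Y-linked UMIs, 110 and 70 in the gate, 152 higher in the gate with Csf3r allowed, and 58 and 59 in the gate without cycling cells. TMM scaling shifted all ratios by 0.17, 0.13 and 0.23 and split the counts 1093 to 924, 522 to 415 and 1063 to 638; median-of-ratios scaling shifted them by 0.10, 0.07 and -0.03 and gave 938 to 1041, 443 to 473 and 724 to 843. Genes whose sign reversed were Oasl2 and Rsad2 in Ly6c2 cells for Hashtag09 against Hashtag12 (-0.0302 each), Cebpb (-0.0538) and Cx3cr1 (-0.18) in Ace or Treml4 cells of the gate, with or without cycling cells, Cd14 in Ly6c2 cells of the gate with Csf3r allowed (-0.0454), and Isg15 (-0.0429) and Hspa1a (-0.0219) in Ly6c2 cells of the gate without cycling cells. The cause of these changes was not tested. Over all alternatives, 1443 values of named genes stayed within the spread, 381 moved and 9 reversed, and 1196 list medians stayed and 152 moved. Hashtag pairs with Hashtag10 were not run, since fewer than 20 monocytes carried it, and hashtag pairs and Xist cells left too few cells to compare some kinds. No paired analysis was possible because each age is 1 library. The gated Ace or Treml4 comparison rests on 6 cells at 2 months.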

Other observations

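Other gene groups over all gated monocytes had the following values, with the rule and the gate as in the text. Complement and coagulation genes were higher in 7 of 12 measured members and lower in 1 (median log2 0.92), and without cycling cells in 7 of 12 with 1 lower (0.66), among them the clotting factor F10, the thrombin receptor partner Thbd and Thbs1. In the left-out Csf3r cells 3 of 13 were higher and 1 lower (0.20). In gated Ly6c2 cells alone 2 of 8 were higher (Itgam and Thbs1) and 1 lower (Cfp, properdin). Of the lipid and cholesterol list 5 of 20 members were higher in the gate (Cd36, Fabp4, Abcg1, Pparg and Acsl1) and 1 lower (Fabp5), a median of 0.31. Abcg1, a cholesterol exporter, stood at 27.1 and 71.7 CPM over gated monocytes (1.40) and was higher in the left-out cells too (1.20). These sums hold the 2 kinds in different proportions at the 2 ages.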
